A study of Sus scrofa with 12 samples.

Results

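A set of 9 genes of glucose uptake and glycogen turnover was followed in the longissimus dorsi (LD, the loin muscle) of Iberian pigs, namely SLC2A4, HK2, GYS1, GYG1, GBE1, PYGM, PHKA1, PHKG1 and PRKAG3. They were chosen by symbol, and all 9 had a row among the 25880 genes of the count tables, of which 14857 could be paired with a symbol. The samples came from 12 pigs, 1 library each, that had been selected for extreme breeding values for muscle myoglobin (MB). The High MB group held 6 pigs with a myoglobin content of 2.376 to 2.559 mg per g of muscle and the Low MB group held 6 pigs with 1.226 to 1.580 mg per g. All were castrated males of a closed commercial Iberian population, without full siblings, slaughtered at a similar age after free-range fattening on acorns and grass, and no treatment was compared. The groups differ by selection on pedigree and phenotype, so any trait that goes with high MB in this population goes with the group.

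Skeletal muscle takes up glucose through the transporter GLUT4, encoded by SLC2A4, which moves to the cell surface after insulin or contraction. Hexokinase 2 (HK2) then traps the sugar as glucose 6-phosphate. Glycogenin (GYG1) primes a new glycogen particle, glycogen synthase (GYS1) lengthens its chains and the branching enzyme (GBE1) adds branch points. Muscle glycogen phosphorylase (PYGM) releases glucose units when phosphorylase kinase switches it on. PHKA1 encodes the muscle regulatory alpha subunit of that kinase and PHKG1 its catalytic gamma subunit. PRKAG3 encodes the gamma subunit of AMP-activated protein kinase (AMPK) that is typical of fast glycolytic muscle. Variants of PRKAG3 and PHKG1 are known in pigs for their effects on muscle glycogen and on meat pH and water loss after slaughter, and no genotype was available here.

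The sequences before 3 of the genes on which the results turn are shown first, to place the genes and to let the windows be compared. They were read from the pig genome Sscrofa11.1 at the gene starts of RefSeq, from 250 bases before the start to 50 bases after it, 5′ to 3′ on the strand of the gene. Capitals mark E-boxes, the CANNTG sites that myogenic regulators and many other factors bind.
HK2 promoter (chr3:68231138-68231437, minus strand): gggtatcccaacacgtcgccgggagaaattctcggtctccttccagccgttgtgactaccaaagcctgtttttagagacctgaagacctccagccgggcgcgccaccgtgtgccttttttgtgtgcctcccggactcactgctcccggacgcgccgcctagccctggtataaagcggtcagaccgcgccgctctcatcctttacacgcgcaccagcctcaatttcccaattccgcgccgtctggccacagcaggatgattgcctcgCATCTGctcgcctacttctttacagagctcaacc
PYGM promoter (chr2:7409080-7409379, plus strand): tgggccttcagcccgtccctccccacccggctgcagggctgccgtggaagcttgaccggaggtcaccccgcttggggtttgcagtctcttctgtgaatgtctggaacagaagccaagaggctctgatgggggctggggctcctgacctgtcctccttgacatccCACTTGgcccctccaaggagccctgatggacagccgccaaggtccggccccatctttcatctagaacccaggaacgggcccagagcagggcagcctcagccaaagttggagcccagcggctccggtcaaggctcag
PHKA1 promoter (chrX:58583167-58583466, minus strand): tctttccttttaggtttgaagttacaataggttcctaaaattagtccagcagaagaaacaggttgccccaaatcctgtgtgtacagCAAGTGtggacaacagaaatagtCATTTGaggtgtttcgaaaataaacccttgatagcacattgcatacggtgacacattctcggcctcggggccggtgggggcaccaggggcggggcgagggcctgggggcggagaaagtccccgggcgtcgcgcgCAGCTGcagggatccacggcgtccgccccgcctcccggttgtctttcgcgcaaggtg
E-boxes were matched as CANNTG on both strands and were present in 6 of the 8 windows examined, beside 67.8% of 19530 RefSeq promoter windows of the same length. SLC2A4 and GYS1 were the 2 of these genes without such letters in the window. PHKA1 held 3 E-boxes, which began 164, 141 and 7 bases before the gene start, and PYGM held 1, which began 86 bases before it. The single HK2 match lay 16 bases after the annotated start. An ATG lies between that start and the match, and the letters read on from it in frame without a stop codon. The match may therefore be coding sequence, and the HK2 window may not hold the promoter of the gene. A loose MEF2 core, CTANNNNTA, was present in 2 of the 8 windows, beside 14.9% of all windows. Its matches were in GBE1 and, as a pair that overlap each other at 216 and 215 bases before the start, in PHKA1. A TATA box, TATAAA, was found in HK2 alone of the 8, 83 bases before the annotated start, beside 10.9% of all windows. The MEF2 and TATA letters did not overlap the E-boxes in these windows. These matches are letters only, and binding was not measured.

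By RefSeq, SLC2A4 lies on chromosome 12 (52628746 to 52634965, plus strand), HK2 on chromosome 3 (68155656 to 68231187, minus), GYS1 on chromosome 6 (54234600 to 54250211, minus) and PYGM on chromosome 2 (7409330 to 7421256, plus). PHKA1 is on the X chromosome (58456097 to 58583216, minus), PHKG1 on chromosome 3 (16822042 to 16831054, plus) and PRKAG3 on chromosome 15 (120859486 to 120866308, minus). GYG1 and GBE1 both lie on chromosome 13, at 89221086 to 89259569 and at 173634401 to 173909646, on the plus strand. A pair of the genes overlaps a neighbour on the other strand. PHKG1 shares 109 exon bases (6.04% of its exon length) with SUMF2, and GYS1 shares 170 (4.79%) with the non-coding LOC110261018. The strand setting of the counting is not given in the sources used here, so reads from those stretches may belong to either gene.

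Each library held between 38914271 and 91318334 reads counted to genes. These made up 47.0% to 48.2% of the reads counted to a gene, to no gene or as ambiguous. Reads counted to no gene made up 50.9% to 52.0%. Every pig had at least 1186 reads for every member, so counting error was small beside the spread between pigs. The muscle markers ACTA1, CKM and TNNC2 were high in every library. High MB pig 2 stood apart from the rest. Among the 9 genes it had the highest CPM (the usual library-size scaled count of a gene, with TMM factors) of all 12 pigs for HK2 and GBE1, and the lowest for SLC2A4, GYG1, PYGM, PHKA1, PHKG1 and PRKAG3. Its ACTA1 level was 0.415 times and its CKM level 0.461 times the median of the other 5 High MB pigs, and its level of the macrophage marker CD163 was 4.5 times that median. The fold changes of the 9 genes are given with and without it.

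The 9 genes spanned a wide range of levels. Per kilobase of exon, PYGM was the most abundant, at a mean over the 12 pigs of 3367 CPM per kilobase. GYS1 followed at 295.8, then GYG1 at 218, PHKA1 at 159.4, PHKG1 at 76.8, SLC2A4 at 72.6 and PRKAG3 at 69.1 CPM per kilobase. HK2 at 23.4 and GBE1 at 12.2 CPM per kilobase were the least abundant. The ranges over the pigs of PHKG1 (43.3 to 135), SLC2A4 (41.9 to 124) and PRKAG3 (23.6 to 112) overlapped widely. Of the relatives of these genes, PHKB, the beta subunit shared by all forms of phosphorylase kinase, reached 158 CPM per kilobase, a level like that of PHKA1. All others were lower than the muscle form beside them.

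**Figure D1:**
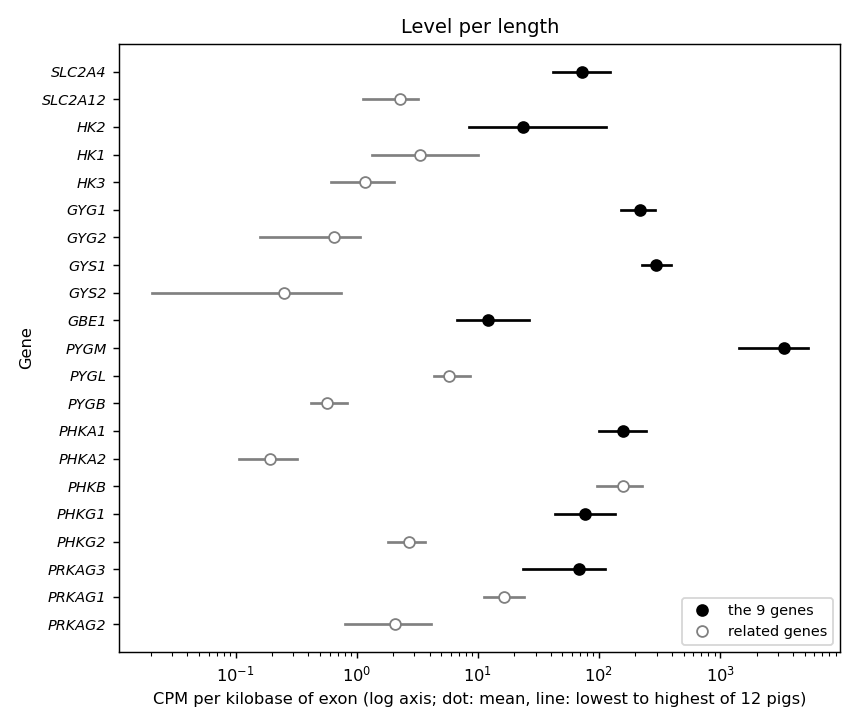
Levels of the 9 genes (filled dots) and of their relatives (open dots) in CPM per kilobase of RefSeq exon on a log axis, with the mean of 12 pigs as a dot and the lowest to highest pig as a line. PYGM had a mean of 3367 and GBE1 of 12.2 CPM per kilobase, and apart from PHKB each relative lay below the member of its own family.

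None of the 9 genes was called different between High MB and Low MB pigs, where a call needed an adjusted p under 0.10 and a log2 fold change beyond 0.58 in either direction (edgeR quasi-likelihood test, adjusted over all 13373 genes tested). The share of all genes called was 0%, and the smallest adjusted p of any gene was 0.563. At an unadjusted p under 0.05, 0 of the 9 were higher in High MB pigs, beside 5.33% of all genes, and 1, PHKA1, was lower, beside 3.13% of all genes. The groups overlapped for all 9 genes, and 0.426% of all genes had groups that did not overlap. Of the 9 fold changes 7 were below 0, with a median of -0.14 on the log2 scale, beside a median of -0.02 and 53.1% below 0 over all genes tested. These signs depend on the scale. For the difference of the mean log2 CPM, 1 of the 9 genes was above 0. Relative to summed muscle-marker counts, a scale chosen after the values were seen, 6 were above 0. DESeq2 called 0 of the 9 as well, against 29 of all genes, and had 1 of the 9, PHKA1, at an unadjusted p under 0.05 in either direction, beside 7.57% of all genes, with no p for HK2. These are tissue samples, so fewer muscle fibres in a sample and less RNA per fibre cannot be told apart.

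**Figure D2:**
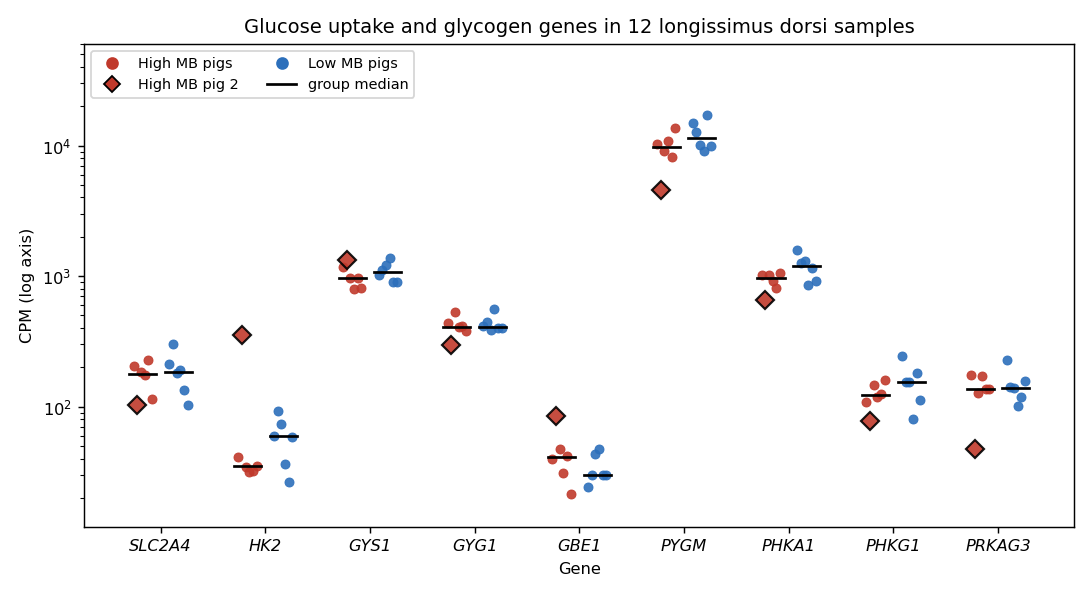
CPM of each of the 9 genes in each pig (log axis), with High MB pigs in red, Low MB pigs in blue, group medians as black lines and High MB pig 2 as a diamond. The groups overlap for every gene, and HK2 in High MB pig 2, at 354.8 CPM, lies far above the other 11 pigs (26.4 to 92.9).

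The uptake genes differed in how far the pigs spread. SLC2A4 had a lowest, median and highest level of 102, 178 and 226 CPM in High MB pigs and of 103, 186 and 302 CPM in Low MB pigs, where pig 2 was the top. The groups began at the same level, and without Low MB pig 2 the highest Low MB pig was at 212 CPM. SLC2A4 had a log2 fold change of -0.16 ± 0.25 (SE, n = 6 and 6; edgeR adjusted p = 0.885) and its sign rested on that pig, since without Low MB pig 2 it was 0.05. Without High MB pig 2 it was -0.03.

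HK2, the enzyme that commits glucose to the muscle cell, varied most of the 9 genes, with a highest level 13.4 times the lowest. High MB pigs 1 to 6 had 40.9, 355, 34.7, 31.5, 32.1 and 34.9 CPM. Low MB pigs 1 to 6 had 59.9, 92.9, 73.7, 36.3, 26.4 and 58.9 CPM. High MB pig 2 alone was about an order of magnitude above its group, at 10.2 times the median of the other 5, while those 5 lay close together and below 4 of the 6 Low MB pigs. With all pigs the log2 fold change was 0.60 ± 0.61 (SE; edgeR adjusted p = 0.809), and the difference of the mean log2 CPM was -0.06 (exact permutation test, two-sided p = 0.950). Without High MB pig 2 the fold change turned to -0.71 ± 0.25 (SE; edgeR adjusted p = 0.466, unadjusted p under 0.05), in a fit where 4.53% of all genes were lower at an unadjusted p under 0.05. Within the 5 deepest libraries, which do not include this pig, it was -0.49, and within the other 7, which do, it was 0.77. HK2 missed the call with and without that pig.

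**Figure D3:**
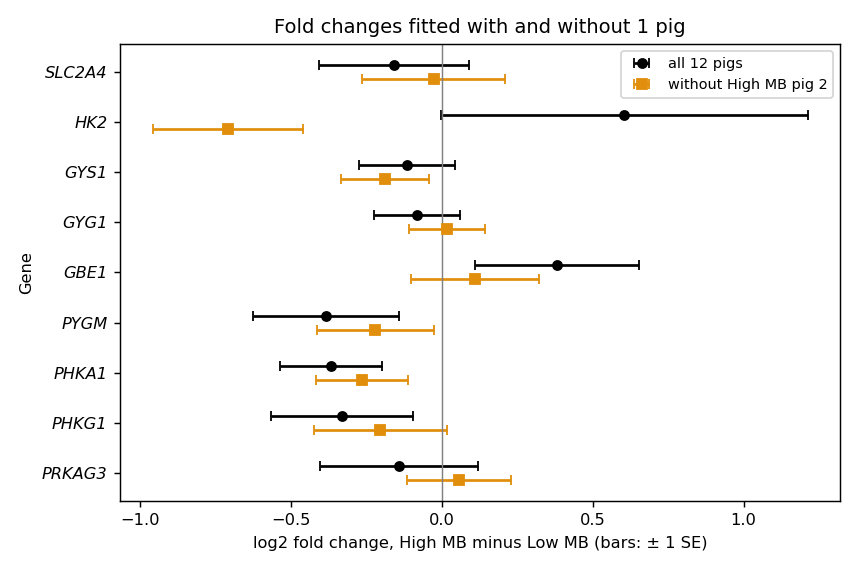
Log2 fold changes of the 9 genes, High MB minus Low MB, with bars of 1 SE, from all 12 pigs (black) and without High MB pig 2 (orange). HK2 moves from 0.60 to -0.71, GYG1 and PRKAG3 cross 0 by small amounts, and PHKA1, PYGM, PHKG1 and GYS1 stay below 0.

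The genes that build glycogen had a narrow spread for GYS1 and GYG1 and a wider spread for GBE1. GYS1 had a lowest, median and highest level of 799, 962 and 1325 CPM in High MB pigs and of 895, 1070 and 1384 CPM in Low MB pigs. For this rate-setting enzyme the log2 fold change was -0.12 ± 0.16 (SE; edgeR adjusted p = 0.865), and it ranged from -0.19 without High MB pig 2 to -0.02 without Low MB pig 4. GYG1 had 295, 410.1 and 531 CPM in High MB pigs and 388, 409.7 and 561 CPM in Low MB pigs, so its medians were almost the same. Its log2 fold change was -0.08 ± 0.14 (SE; edgeR adjusted p = 0.900), 0.02 without High MB pig 2, and 0.02 without Low MB pig 4. Low MB pig 4 was the highest pig for GYG1 and GYS1. GBE1 had 21.4, 40.8 and 84.8 CPM in High MB pigs and 24.1, 29.9 and 47.4 CPM in Low MB pigs, with High MB pig 2 at the top. Its log2 fold change of 0.38 ± 0.27 (SE; edgeR adjusted p = 0.707) became 0.11 ± 0.21 without that pig. Within the 5 deepest libraries it was -0.05.

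PYGM, the enzyme of glycogen breakdown and among the 10 most abundant genes of the tissue, had 10368, 4595, 9044, 10774, 8201 and 13696 CPM in High MB pigs 1 to 6. In Low MB pigs 1 to 6 it had 14996, 12760, 10098, 9086, 17085 and 9911 CPM. High MB pig 2 was the lowest, 2 Low MB pigs exceeded every High MB pig, and the rest were interspersed. The log2 fold change was -0.38 ± 0.24 (SE; edgeR adjusted p = 0.660, exact permutation p = 0.141), and it was -0.22 ± 0.19 without High MB pig 2. Within the deepest libraries it was -0.16 and within the others -0.39.

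PHKA1, whose product holds phosphorylase kinase in check until calcium or phosphorylation releases it, had 1024, 660, 1011, 920, 805 and 1060 CPM in High MB pigs 1 to 6. In Low MB pigs 1 to 6 it had 1593, 1260, 1311, 853, 1144 and 914 CPM. Of the 6 Low MB pigs 4 were above every High MB pig, and the other 2 lay inside the High MB range. The log2 fold change was -0.37 ± 0.17 (SE; edgeR p = 0.0466, adjusted p = 0.578; exact permutation p = 0.0714). It was -0.26 within the deepest libraries and -0.37 within the others, and without High MB pig 2 it was -0.27 (edgeR adjusted p = 0.545). The unadjusted p stayed under 0.05 for 5 of the 12 pigs left out singly. PHKG1, the catalytic subunit, had a lowest, median and highest level of 78.1, 122 and 159 CPM in High MB pigs and of 79.7, 155 and 244 CPM in Low MB pigs. Its log2 fold change was -0.33 ± 0.23 (SE; edgeR adjusted p = 0.705) and was -0.20 without High MB pig 2, -0.45 without Low MB pig 4 and -0.15 without Low MB pig 1.

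PRKAG3, the AMPK subunit, had 176, 47.6, 128, 172, 137 and 136 CPM in High MB pigs 1 to 6. In Low MB pigs 1 to 6 it had 226, 140, 138, 101, 118.3 and 156 CPM. High MB pig 2 was below all the others, at 0.347 times the median of the other High MB pigs, and the remaining 11 pigs were mixed. The log2 fold change was -0.14 ± 0.26 (SE; edgeR adjusted p = 0.908). It was 0.06 without High MB pig 2 and 0.02 without Low MB pig 1, the highest pig.

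**Figure D4:**
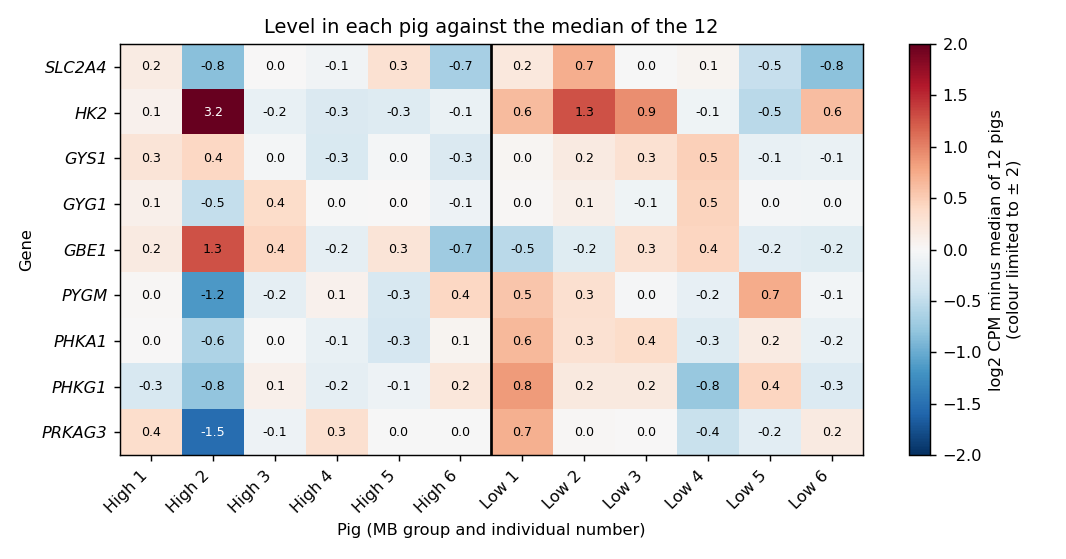
Log2 CPM of each gene in each pig minus the median of all 12 pigs, with High MB pigs left of the black line and colours limited to ± 2. High MB pig 2 is the highest pig for HK2 and GBE1 and the lowest for 6 genes, and Low MB pig 1 is the highest for PHKA1, PHKG1 and PRKAG3.

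High MB pig 2 combined a high HK2, GBE1 and GYS1 with a low PYGM and PRKAG3. Relative to the median of the other 5 High MB pigs it had 2.14 times the GBE1 level, 1.38 times the GYS1 level and 0.443 times the PYGM level. PPP1R3A, the muscle subunit that tethers protein phosphatase 1 to glycogen, was at 0.475 times. The difference of HK2 exceeded that of 99.7% of all genes tested in this pig, whereas that of PYGM exceeded 89.4% and that of PHKA1 67%. As a scale chosen after the values were seen, counts were set against the summed counts of ACTA1, CKM and TNNC2. On it PYGM in this pig was 98.4% of the median of the other 5 High MB pigs, while HK2 was 2288%, GBE1 463%, GYS1 308% and PRKAG3 70.3%. This scale raised the position of the pig by 2.02 to 2.42 times for all 9 genes alike, so it says nothing on their order.

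The muscle forms dominated their families. The shares rest on the same RefSeq lengths, such as 9599 bases for PRKAG2 beside 2022 for PRKAG3, and are approximate as well. In CPM per kilobase, PYGM made up at least 99.3% of PYGM, PYGB (brain form) and PYGL (liver form) in every pig. PHKA1, GYS1 and GYG1 made up over 99% beside PHKA2, GYS2 and GYG2, which are known from liver and other tissues. PHKG1 made up 92.7% to 98.3% beside PHKG2, its liver and testis form. SLC2A4 made up 94.4% to 98.1% beside SLC2A12, and the transporters SLC2A1 and SLC2A3 were not analysed here. HK2 shared its family with HK1 and HK3 and made up 69.2% to 91.2% of these. PRKAG3 made up 51.4% of the AMPK gamma subunits in High MB pig 2 and 70.7% to 89.3% in the other 11 pigs, with PRKAG1 providing most of the remainder. PRKAG1 in that pig was at the level of the other High MB pigs (39.9 against a median of 39.8 CPM), while PRKAG2 was at 2.3 times theirs and HK1 at 3.22 times.

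**Figure D5:**
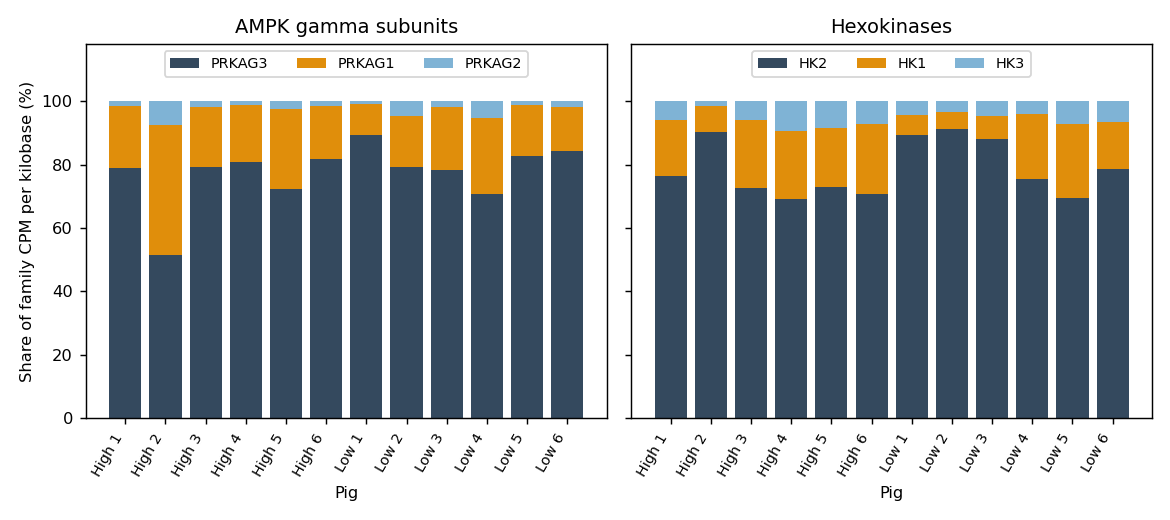
Share of each gene in the summed CPM per kilobase of its family, for the AMPK gamma subunits (left) and the hexokinases (right), in each of the 12 pigs. PRKAG3 makes up 51.4% in High MB pig 2, and HK2 varies between 69.2% and 91.2%.

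Of the 12 relatives with a row, 3 were higher in High MB pigs at an unadjusted p under 0.05 (beside 5.33% of all genes), 0 were lower, and 0 were called. They were PHKG2 (log2 fold change 0.48 ± 0.16, SE; exact permutation p = 0.0173), PRKAG1, the widely expressed AMPK gamma subunit (0.40 ± 0.15; exact p = 0.0433), and HK1, the hexokinase of most tissues (0.81 ± 0.34; exact p = 0.0758). Each had an edgeR adjusted p of 0.563. Without High MB pig 2, PHKG2 and PRKAG1 kept an unadjusted p under 0.05, and HK1, at 0.37 ± 0.23 (SE; edgeR adjusted p = 0.565), lost it. In that fit 5.8% of all genes were higher at that p. The levels were low beside the muscle forms, with means of 5.47 and 3.93 CPM for PHKG2 in High MB and Low MB pigs. PRKAG1 had 39.5 ± 8.07 CPM (SD, n = 6) in High MB and 30.0 ± 5.47 CPM (SD, n = 6) in Low MB pigs. The median log2 fold change of the relatives was 0.25. For the remaining 9 relatives the fold changes lay between -0.18 (PHKB) and 0.58 (GYG2), and SLC2A12, HK3, GYS2, PYGB, PYGL, PHKA2 and PRKAG2 fell between them.

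Of 26 further genes of glucose uptake and glycogen turnover, 0 were higher and 1 was lower in High MB pigs at an unadjusted p under 0.05 (beside 5.33% and 3.13% of all genes). This was LNPEP, the aminopeptidase IRAP that travels with GLUT4 in its storage vesicles, at -0.41 ± 0.16 (SE; edgeR adjusted p = 0.563, exact permutation p = 0.0368), with 21.8 CPM in High MB and 29.0 CPM in Low MB pigs. Without High MB pig 2 it was -0.38 and missed that limit, while GSK3B, the kinase that inhibits glycogen synthase, met it at -0.27 (edgeR adjusted p = 0.487 and 0.477). In that fit 4.53% of all genes were lower at that p. With all pigs, the fold changes of 20 of the 26 were below 0, with a median of -0.09, beside 53.1% of all genes below 0 and a median of -0.02. PPP1R3A had -0.35, or -0.20 without High MB pig 2, and UGP2, which makes the UDP-glucose that GYS1 uses, -0.26, both with an unadjusted p over 0.10.

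The 4 slow-fibre markers with a row (TNNI1, TNNT1, TNNC1 and MYL3) were all higher in High MB pigs at an unadjusted p under 0.05, with log2 fold changes of 0.51 to 0.58 and 0 called, beside 5.33% of all genes higher at that p. All 4 kept that p without High MB pig 2, beside 5.8% of all genes. Their summed level ranged from 4527 to 7595 CPM in High MB and from 2877 to 5117 CPM in Low MB pigs. Neither of the 2 fast-fibre markers (TNNI2 and TNNT3) passed that test, and their sum ranged from 9347 to 19340 CPM and from 13751 to 19489 CPM. The sum of the 3 muscle markers ranged from 31008 to 78545 CPM in High MB and from 56491 to 107080 CPM in Low MB pigs, with 0 of 3 at that p. Both sums were lowest in High MB pig 2, and the other 5 High MB pigs began at 62702 CPM for the muscle markers and at 15289 CPM for the fast-fibre markers. Of the other lists, 2 of 5 adipocyte, 0 of 3 endothelial, 3 of 4 macrophage, 2 of 4 fibroblast and 2 of 2 blood markers were higher at that p and 0 were lower, beside 5.33% and 3.13% of all genes, and without High MB pig 2 the macrophage count was 2 of 4 and the other counts were equal, with DCN in the place of PDGFRA among the fibroblast markers, beside 5.8% of all genes higher and 4.53% lower. Their summed levels in High MB and Low MB pigs were 55.3 to 228 and 35.8 to 199 CPM for adipocytes, 97.2 to 137 and 62.6 to 154 for endothelium, 29.1 to 78.7 and 18.0 to 36.0 for macrophages, 496 to 895 and 254 to 665 for fibroblasts, and 66.5 to 146 and 38.4 to 84.3 for blood. The highest macrophage level was that of High MB pig 2, and the other 5 High MB pigs reached 45.3 CPM. No marker with a row was at 0 reads in any pig. The part of fibre type or of other cells in the levels of PHKA1, HK2 and PRKAG1 was not tested.

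No relation with myoglobin content within a group was detectable over 6 pigs. Of 18 correlations between log2 CPM and myoglobin content, within High MB or within Low MB pigs, the median absolute Pearson r was 0.209 and the smallest exact permutation p was 0.182 (Benjamini-Hochberg adjusted p = 0.961 over the 18). The strongest were in Low MB pigs, for GYS1 (r = 0.652, exact p = 0.182; Spearman rho = 0.543, exact p = 0.297) and GBE1 (r = 0.639, exact p = 0.182; rho = 0.600, exact p = 0.242). Without the 2 pigs farthest from the median myoglobin content they were 0.857 and 0.498 over 4 pigs. For PHKA1 r was -0.384 in High MB pigs (exact p = 0.458; rho = -0.486, exact p = 0.356) and 0.124 in Low MB pigs (exact p = 0.786; rho = 0.143, exact p = 0.803).

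Each gene was also set against 11345 genes with a symbol, by the Pearson correlation of log2 CPM centred within the groups over the 12 pigs, where all genes of a pig share its library depth and scaling, and the nearest were taken, at most 3 a gene. For SLC2A4 these were SLC25A3, the mitochondrial phosphate carrier (r = 0.955), PCYT2 and KEAP1. For HK2 they were SOCS3, an inhibitor of cytokine signalling (0.938), LOXL4 and HMOX1, and without High MB pig 2 these correlations were 0.691, 0.650 and 0.629. GYS1 was nearest to RSL1D1 (0.958), USP39 and DBT, and GBE1 to PHYKPL (0.964), IFRD1 and UBAP2L. GYG1 was nearest to HLTF (0.955), whose gene lies 1629 bases away on the other strand, then to CILP. PYGM was nearest to EFCAB7 (0.980), the glycolytic enzyme ENO3 (0.958) and CCNYL1. PHKA1 was nearest to ANKRD28 (0.960), ASCC1 and RCN2. PHKG1 was nearest to KCNS3 (0.982), SUMF2 (0.959) and HRAS, and SUMF2 is the gene with which it shares exon bases. PRKAG3 was near to RCSD1 (0.955) and LRRC20 (0.943). Apart from those of HK2, the correlations with the genes named here were 0.811 or more without High MB pig 2.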

How the data were processed

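RNA was measured in 12 LD samples, 1 per pig, taken at slaughter and kept frozen. Per the submitters' processing notes and the study's methods, the authors trimmed 150-bp read pairs with Trim Galore, mapped them with HISAT2 to Sscrofa11.1 and deposited raw HTSeq counts per gene, not normalised. The annotation release and the strand and overlap settings are not given in the sources used here. Losses in mapping and counting therefore remain in the counts. Transcript counts were not used. Groups and individual numbers came from the labels, and identifiers were named through an Ensembl table.

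Libraries held 38914271 to 91318334 gene counts. The main test was edgeR 4.0.16 in R 4.3.3 (TMM, filterByExpr, quasi-likelihood test, no covariate) on 13373 genes, with Benjamini-Hochberg adjustment. The study used DESeq2, and DESeq2 1.42.0 was run as an alternative. On data simulated for this comparison with 13373 genes, edgeR called 82% of 2-fold and 100% of 4-fold changes. These shares hold for the simulated counts and are not the power for the real pigs, where High MB pig 2 stood apart. Smaller changes were not simulated, and the log2 fold changes of the genes followed here, -0.38 to 0.60, were all smaller than 2-fold. Exact two-sided permutation tests covered 924 regroupings, with a smallest p of 0.00216. Log2 CPM used a prior count of 2. Libraries over 50000000 gene counts were the deep class (2 High MB and 3 Low MB pigs). No 2 libraries agreed within sampling noise. P-values set the difference between the groups against the spread between pigs within them. They take the pigs as independent, and kinship was not modelled.

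Named genes were the 9 genes, their relatives, other pathway genes at an unadjusted p under 0.05 and the 3 genes nearest each member, to which PPP1R3A, UGP2, GSK3B and CD163 were added after their values were seen. The 9 genes and the lists were chosen with earlier results of these data known. A few genes of these rules and 1 promoter window are not reported here, and the list counts leave those genes out. Listed symbols not paired with an identifier in the naming table used (SLC2A1, SLC2A3, PGM1, PPP1R3E, EPM2A, NHLRC1, STBD1, MYLPF, MYH7, MYH1, MYH2, MYH4, VWF and HBA1) were not analysed here. Lengths and promoters came from RefSeq on Sscrofa11.1. Alternatives were other size factors, filters and tools, depth class, the individual number as a block, and pigs left out. A scale of muscle markers and the list counts without High MB pig 2 were added after seeing the data.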

Additional observations from a re-analysis of the deposited data

Results flagged for a closer look

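The gap between the most extreme pig and the next, as a share of the whole range of its group on the log2 CPM scale, was above the 95% limit of Dixon's test for 6 pigs in 3 of the 18 combinations of gene and group. Chance alone flags about 1 in 20 of them. HK2 in the High MB group had a share of 0.892, with High MB pig 2 at 354.8 CPM above the others. PRKAG3 in the High MB group had 0.756, with the same pig at 47.6 CPM below the others. GYG1 in the Low MB group had 0.638, close to the limit, with Low MB pig 4 at 561 CPM above the others.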

How the results depend on the processing

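None of the 9 genes was called under any of the alternatives run. Of 215 recomputed log2 fold changes 11 reversed. HK2 (main value 0.60) was -0.10 with the individual number as a replicate block, -0.81 with High MB pig 2 and Low MB pig 4 both left out, and -0.49 in the deep libraries alone. GYG1 (-0.08) was 0.11 with both pigs left out, and GBE1 (0.38) was -0.053 in the deep libraries alone. With single pigs left out, SLC2A4 ranged from -0.28 to 0.047, HK2 from -0.71 to 0.79, GYG1 from -0.17 to 0.022 and PRKAG3 from -0.24 to 0.057. On counts relative to muscle markers, which moved the difference of every gene by the same 0.233 on the log2 scale, the differences reversed to 0.10 (SLC2A4), 0.17 (HK2), 0.11 (GYS1), 0.14 (GYG1) and 0.026 (PRKAG3), none with an exact p under 0.05. The count of genes at an unadjusted p under 0.05, 1 in the main test, was 0 with RLE or upper quartile factors, at least 10 counts in every pig, depth class as a term, the replicate block, or the 10 most abundant genes removed (PYGM was then not tested), 2 with both pigs left out, and 0 to 3 with single pigs left out. The share of all genes at that p was 8.46% in the main test, 7.16% to 10% under the former settings, 8.17% with both pigs left out and 6.27% to 10.8% with single pigs left out. DESeq2 gave HK2 no p. Correlations with myoglobin that moved without the 2 farthest pigs were -0.36 (GBE1) and 0.11 (PHKG1) in High MB and 0.91 (SLC2A4) and 0.79 (GYG1) in Low MB pigs, over 4 pigs each. Causes were not tested. Individual numbers name different animals. Deviations of same-numbered pigs correlated at -0.21 to 0.14, over 0.1 in 1 of 6 pairs, and 0 of 12 pigs correlated best with their own number. Each gene had at least 1186 reads in every pig, and with depth class as a term HK2 was 0.25, GBE1 0.21, GYS1 -0.19 and PRKAG3 -0.076.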
